A study of Mus musculus with 12 samples.

Results

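The genes of glycolysis and glucose uptake were followed in mouse astrocytes that had been activated with bacterial lipopolysaccharide (LPS) and interferon-gamma. Of 10 genes listed (Hk1, Hk2, Slc2a1, Pfkfb3, Pfkp, Aldoa, Pgk1, Eno1, Ldha and Pdk1), 9 had a probe in the platform annotation, with 11 probes in all, out of 16593 genes on 25697 probes. Eno1 was not analysed here. Probes were matched to the genes by symbol alone, but the members were chosen with earlier results of these data known. Of the 9 genes 8 were detected on at least 1 array.

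The astrocytes came from a neural stem cell line, labelled Rosa25/OG2, and were differentiated for 4 days in 10% fetal calf serum and matured for 14 days. The non-activated control was cultured for 4 h with neither stimulus nor compound, and the protocol names DK10 as the treatment medium. The activated control received 1 µg/ml of LPS, which signals through Toll-like receptor 4, and 10 ng/ml of interferon-gamma, and 10 further groups got both stimuli and then 1 hit compound for 4 h. The compounds carry only the code names E29, E33, E4, E19, E14, E18, E5, E20, E21 and E23. Doses, structures and the number of cultures per array are not in the labels, all groups come from 1 cell line, and each of the 12 groups is 1 Illumina bead array with no replicate.

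Glucose enters astrocytes through the transporter GLUT1, encoded by Slc2a1, and is trapped as glucose-6-phosphate by a hexokinase. Phosphofructokinase, which Pfkp encodes in its platelet form, commits the sugar to glycolysis, and Pfkfb3 makes its allosteric activator fructose-2,6-bisphosphate. Aldolase A (Aldoa), phosphoglycerate kinase (Pgk1) and enolase (Eno1) carry the pathway to pyruvate, which lactate dehydrogenase A (Ldha) reduces to lactate, while pyruvate dehydrogenase kinase (Pdk1) holds pyruvate back from the mitochondria. Astrocytes are known for a high glycolytic rate and for releasing lactate, and many of these genes are known targets of hypoxia-inducible factor, whose core recognition sequence is ACGTG.

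The promoters of 3 members are shown because their genes stand for the 3 patterns on these arrays: Hk2 had the widest range, Slc2a1 stood opposite to Hk2 in activation and with E29, and Ldha was nearly level after normalisation. Each window runs from 250 bases before to 50 bases after a RefSeq start of the gene (assembly GRCm38.p6), 5′ to 3′ on the strand of the gene. Capitals mark ACGTG on either strand, which reads CACGT on the other strand, and the E-box CACGTG, which overlaps it. The windows are chr6:82774405-82774704 on the minus strand for Hk2, chr4:119108495-119108794 on the plus strand for Slc2a1 and chr7:46845554-46845853 on the plus strand for Ldha. Another Ldha start has a window, chr7:46846832-46847131, that is not printed and holds 0 matches of either motif.
Hk2: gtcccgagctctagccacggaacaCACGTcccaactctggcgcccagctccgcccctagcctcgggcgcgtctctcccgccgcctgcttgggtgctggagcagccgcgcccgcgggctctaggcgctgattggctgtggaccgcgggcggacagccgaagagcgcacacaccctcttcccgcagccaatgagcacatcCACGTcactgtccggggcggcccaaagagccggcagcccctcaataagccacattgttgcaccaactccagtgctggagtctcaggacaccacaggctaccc
Slc2a1: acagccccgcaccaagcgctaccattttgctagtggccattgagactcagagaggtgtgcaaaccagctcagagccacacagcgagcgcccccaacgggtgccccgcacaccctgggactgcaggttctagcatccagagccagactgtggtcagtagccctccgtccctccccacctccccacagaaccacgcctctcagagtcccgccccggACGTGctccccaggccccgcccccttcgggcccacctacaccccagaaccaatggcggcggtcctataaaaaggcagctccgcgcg
Ldha: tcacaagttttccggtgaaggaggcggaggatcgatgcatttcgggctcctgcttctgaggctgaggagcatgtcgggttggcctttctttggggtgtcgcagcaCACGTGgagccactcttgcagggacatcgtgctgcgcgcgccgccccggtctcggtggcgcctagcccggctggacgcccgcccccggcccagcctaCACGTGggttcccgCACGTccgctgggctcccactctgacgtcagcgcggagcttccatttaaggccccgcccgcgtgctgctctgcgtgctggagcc

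All 10 listed genes had at least 1 window in the promoter table, 18 windows in all, since genes with several starts have several. ACGTG lay in 9 of these 18 windows and in 19.6% of all 32851 windows. Windows of 1 gene can overlap, so they are not independent. The Aldoa windows from 126799205 and 126799129 hold the same site, at -126 and -202 from their starts. CACGTG lay in 2 of the 18 and in 7.15% of all windows. A match or its absence in such a window is a description of its letters only.

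On these arrays 25697 probes were read, and between 9106 (E29) and 10719 (non-activated control) were detected. Levels are given as normalised log2 intensities. The labelled cell type was checked with fixed markers: 12 of 14 astrocyte markers with a probe were detected on every array, Gfap among them at 12.37 to 12.87 log2 units, as were 5 or 6 of 11 neural stem cell markers and 3 to 5 of 13 neuron markers and 2 of 9 oligodendrocyte markers. Of 12 microglia and macrophage markers 0 were detected on any array. In bulk RNA, fewer cells of a type and less RNA per cell cannot be told apart. Called means a difference of at least 2-fold. There is no test and no error from replicates, since every group is a single array. The yardstick used is the smallest standard deviation (SD) over genes of the difference between any pair of arrays, 0.20 log2 units for E5 against the activated control.

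After normalisation the members fell into those that hardly varied and those that did. Aldoa lay between 11.56 (activated control) and 11.84 log2 units (E29) over the 12 arrays, and Ldha between 11.99 (E4) and 12.28 (E5). The whole range of each was 0.28 log2 units, which is 1.22-fold. This levelness depends on the processing. Over 10 alternative settings the change with E29 against the activated control ran from 0.029 to 0.71 for Aldoa. For Ldha it ran from -0.14 to 0.56. Hk2, the inducible hexokinase that binds mitochondria, covered 4.29 log2 units, a 19.5-fold range, with an SD of 1.21 over the arrays. Without E29 that SD was 0.49, still the widest of the members. Pdk1 and Slc2a1 came next, with SDs of 0.38 and 0.31 over the 12 arrays and 0.23 each over the 11 arrays without E29.

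**Figure D1:**
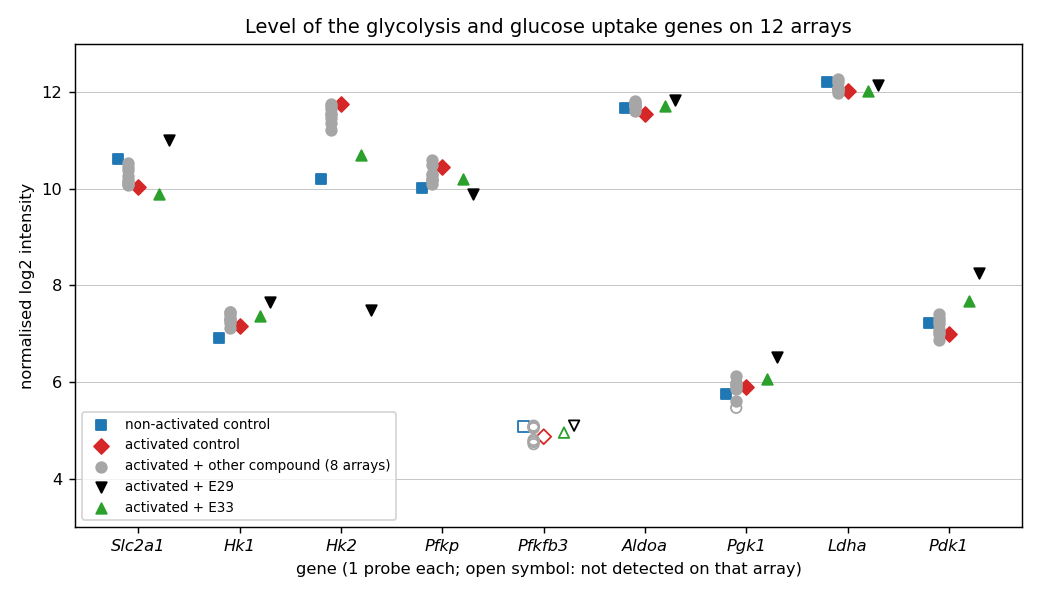
Normalised log2 intensity (y axis) of the 9 members with a probe (x axis) on 12 arrays, with 1 point per array and open symbols where the gene was not detected. Hk2 with E29 at 7.48 lies far below the other 11 arrays, which lie at 10.20 to 11.77, while Aldoa and Ldha each stay within 0.28.

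Hexokinases carry out the first step, and Hk2 set the pattern. Its deposited, not normalised intensity was 1399 in the non-activated control and 3733 in the activated control. With compounds on activated cells it was 3909 (E14), 3548 (E21), 3264 (E18), 3090 (E5), 3054 (E20), 2849 (E23), 2566 (E4), 2368 (E19), 1645 (E33) and 221 (E29). The array with E29 was thus the lowest of the 12 and the non-activated control the next lowest, and E33 lay between the controls. After normalisation the levels ran from 11.77 (E14) and 11.76 (activated control) through 11.72 (E21), 11.65 (E18), 11.55 (E23), 11.54 (E20), 11.47 (E5), 11.36 (E4) and 11.21 (E19) to 10.70 (E33), 10.20 (non-activated control) and 7.48 (E29). Each of the first 9 arrays in this order differed from its neighbour by 0.15 or less, within the yardstick, and the gaps below E19, E33 and the non-activated control were 0.51, 0.49 and 2.72.

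Hk1, the constitutive hexokinase of brain, did not share the large fall of Hk2 with E29. The Pearson r between them was -0.43 over the 12 arrays and 0.39 over the 11 arrays without E29. Hk1 was detected on all 12 arrays, at 6.92 log2 units in the non-activated control, 7.16 in the activated control and 7.12 (E18) to 7.66 (E29) with the compounds. Its probe was dim, at deposited intensities of 219 (E4) to 278 (E20) where the array medians were 117 to 127. The highest normalised level, with E29, belonged to an intensity of 236, below the 250 of the activated control.

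Slc2a1 ran against Hk2 past the yardstick on activation, with E29 against either control and with E4 against the activated control. Of all measured genes 56.6% were past the yardstick on activation, 83.6% with E29, 79.4% with E29 against the non-activated control and 60.1% with E4. Its normalised level was 10.61 in the non-activated control, 10.04 in the activated control, and 11.01 (E29), 10.53 (E4), 10.46 (E18), 10.38 (E14), 10.26 (E21), 10.18 (E20), 10.13 (E19), 10.10 (E5), 10.09 (E23) and 9.90 (E33) with compounds. The E29 array was the highest, by 0.40 over the non-activated control, and E33 the lowest. In 9 alternative settings that difference ran from -0.050 (scaling to reference genes) to 0.87. The gaps between all other neighbours in this order were within the yardstick. In deposited intensity E29 stood at 2140, the non-activated control at 1766 and the activated control at 1217.

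Pdk1, from a family of kinases that inactivate pyruvate dehydrogenase, was the other variable member. It stood at 7.23 log2 units in the non-activated control, 6.99 in the activated control, and 8.26 (E29), 7.68 (E33), 7.41 (E4), 7.32 (E20), 7.26 (E23), 7.20 (E19), 7.09 (E18), 7.04 (E14), 6.99 (E5) and 6.86 (E21) with compounds. E29 and E33 were the highest arrays, with gaps of 0.59 and 0.27 below them, and the remaining 10 lay within 0.13 of their neighbours. The Pdk1 probe was dim, with deposited intensities from 218 (E21) to 323 (E29). It read 273 in the non-activated control, 233 in the activated control and 301 with E33.

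**Figure D2:**
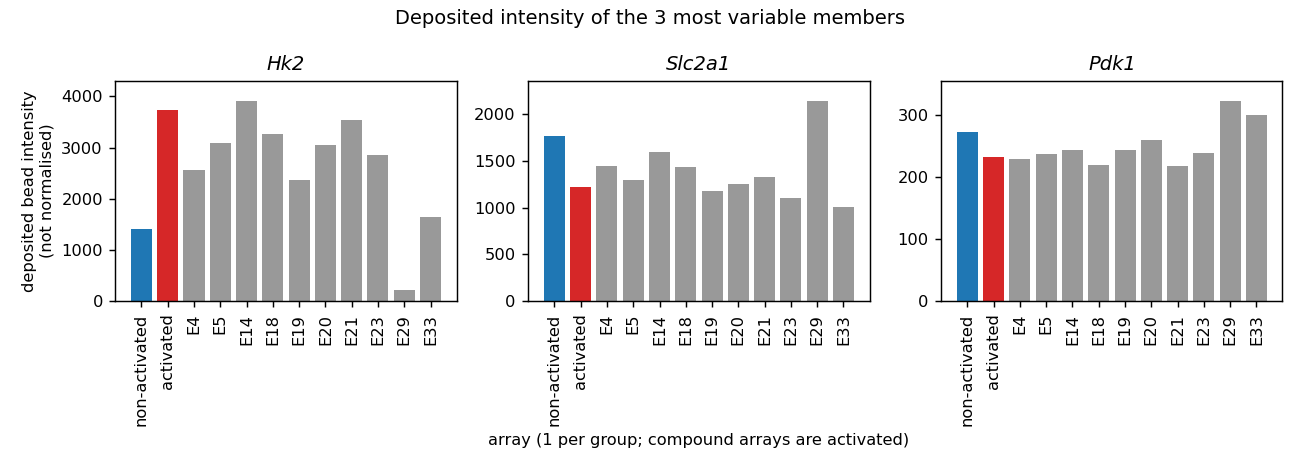
Deposited bead intensity without normalisation (y axis, from 0) of Hk2, Slc2a1 and Pdk1 on the 12 arrays (x axis, 1 bar per array; blue, non-activated control; red, activated control; grey, compounds on activated cells). Hk2 is at 221 with E29, where Slc2a1 (2140) and Pdk1 (323) have their tallest bars.

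The remaining members stand in the middle and at the end of the pathway. Pfkp had 3 probes, of which 2 were detected on all 12 arrays and 1 on none. The brighter probe was at 10.02 log2 units in the non-activated control, 10.45 in the activated control, 9.88 with E29 and at most 10.60 (E20). Pgk1 was dim, detected on 11 of 12 arrays and not with E5, with levels of 5.47 (E5) to 6.51 (E29). Pfkfb3 was detected on no array, with deposited intensities of 116 to 131, so it has no comparison here. The probe of Eno1b, a gene near-identical to Eno1 and not on the list, was detected on all arrays at 7.60 log2 units without activation, 7.75 with it and 8.89 with E29, and its hybridisation to Eno1 transcripts was not tested.

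Activation with LPS and interferon-gamma was read from the control arrays. The stimulated control had 2.94-fold more Hk2 signal than the non-activated one (log2 change 1.56), the 104th largest increase among 7659 measured genes. It was the only one of 8 measured members called, with 1 higher and 0 lower, where 5.29% of all measured genes were called, 3.17% higher and 2.12% lower. Against the median of all 11 activated arrays in place of the activated control, the log2 change of Hk2 was 1.34, and all 10 alternative settings kept it at 2-fold (1.24 to 1.60).

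Below 2-fold, Pfkp stood 0.43 log2 units above the non-activated control, and its second detected probe 0.40 above. Slc2a1 stood 0.58 below, and below it in every one of 10 alternative settings (-0.81 to -0.43). Hk1 (0.24) and Pdk1 (-0.24) also lay past the yardstick, as did 56.6% of all measured genes. Pgk1 (0.16), Aldoa (-0.12) and Ldha (-0.19) lay within it. The median over the 8 measured members was 0.019 and that over all measured genes -0.034, with Hk2 and Slc2a1 at the opposite ends of the list.

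All 10 compound arrays share 1 comparator, the activated control. With E29, Hk2 was 19.4-fold lower than with stimulation alone (log2 change -4.28), rank 34 from the lowest of 7472 measured genes. It was also 6.60-fold lower than in the non-activated control (log2 change -2.72), so its level lay below that of cells that had never been activated. Set against the median of the remaining activated arrays, it was 16.8-fold lower. Over 10 alternative settings the log2 change against the activated control ran from -4.96 to -3.71, and Hk2 was still detected with E29.

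In the same comparison Pdk1 was 2.41-fold higher (log2 change 1.27) and Slc2a1 1.97-fold higher (0.98), just under the threshold. Over 10 alternative settings the log2 change ran from 0.62 to 1.27 for Pdk1 and from 0.72 to 1.32 for Slc2a1. Either can thus fall on both sides of the threshold. In deposited intensity the ratio to the activated control was 1.39 for Pdk1 and 1.76 for Slc2a1. With E29, 2 of 8 measured members were called, 1 higher and 1 lower, where 24.7% of all genes were called, 10.2% higher and 14.5% lower. The share among the members is near that background. At 1.5-fold 4 of 8 were past the threshold, against 51% of all genes. Pfkp was 0.56 log2 units lower by its brighter probe and 0.25 lower by the other, Pgk1 was 0.61 higher and Hk1 0.50 higher, and Aldoa (0.28) and Ldha (0.11) lay close to the median of all genes, 0.25. The members' median was 0.39.

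For Pgk1 and Hk1, both dim, the increase with E29 was present after normalisation and not in the deposited intensity. Pgk1 had a deposited intensity of 159 with E29 and 158 in the activated control, and Hk1 236 and 250, although the normalised levels were higher. Scaling the arrays to reference genes instead turned both, to -0.09 for Pgk1 and -0.24 for Hk1, and put Pdk1 at 0.62 and Slc2a1 at 0.76. The E29 array detected the fewest probes, 9106. Of 11 endothelial and fibroblast markers 1 was detected on every array, Acta2, a smooth muscle actin that astrocytes in culture can also express, and the summed intensity of that list was 3044 with E29 and 5059 to 8488 on the other arrays. The summed intensity of the astrocyte markers was the highest with E29, 58194, and that of the neuron markers was 5183 with E29 and 3796 to 4395 elsewhere. Of 9 oligodendrocyte markers 2 were detected on every array, with a summed intensity of 6295 with E29 and 3600 to 4809 elsewhere. The part of these differences in the values was not tested. Against the non-activated control 2 of 8 members were called with E29, where 20.5% of all genes were, 7.38% higher and 13.1% lower, and at 1.5-fold 4 of 8, against 46% of all genes. Pdk1 was the higher one at 2.05-fold, but it kept 2-fold in 4 of 9 alternative settings and stood at 0.0072 with scaling to reference genes. In deposited intensity Pdk1 with E29 was 1.18-fold the non-activated control.

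E33 gave the other called member. Hk2 had a log2 change of -1.06 against the activated control, 2.09-fold lower and the 47th lowest of 7502 measured genes. Of 8 members 1 was called, against 0.973% of all genes, and at 1.5-fold 2 were past the threshold, against 7.18% of all. From the median of the other 10 activated arrays Hk2 fell by 0.85 on the log2 scale, under the threshold, so that 0 of 8 were called by that reference, against 0.535% of all genes. It stood 0.49 log2 units above the non-activated control. Pdk1 was 1.60-fold higher with E33 (1.44-fold against the other 10 arrays), rank 104 from the highest, and its deposited intensity was also the higher one. The other 6 measured members with E33 lay between -0.25 (Pfkp) and 0.20 (Hk1).

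With E4, 0 of 8 members were called, against 3.38% of all genes. Slc2a1 was 0.50 log2 units higher and Pdk1 0.41 higher than in the activated control, and Hk2 was 0.40 and Pfkp 0.35 lower.

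With E19, Hk2 was 0.55 log2 units lower, the next largest decrease of a member outside E29 and E33, and it was 0.34 below the median of the remaining activated arrays. E5, E20 and E23 had Hk2 at -0.29, -0.22 and -0.21, and E18, E21 and E14 at -0.11, -0.039 and 0.0043. Slc2a1 was 0.43 higher with E18 and 0.35 higher with E14, and Pdk1 0.33 higher with E20 and 0.27 with E23. No member was called with any of these 7 compounds, where the share of all genes called was 0.0406% with E20, 0.041% with E23, 0.0947% with E5 and 0.107% with E21. It was 0.281% with E14, 0.299% with E18 and 0.409% with E19.

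**Figure D3:**
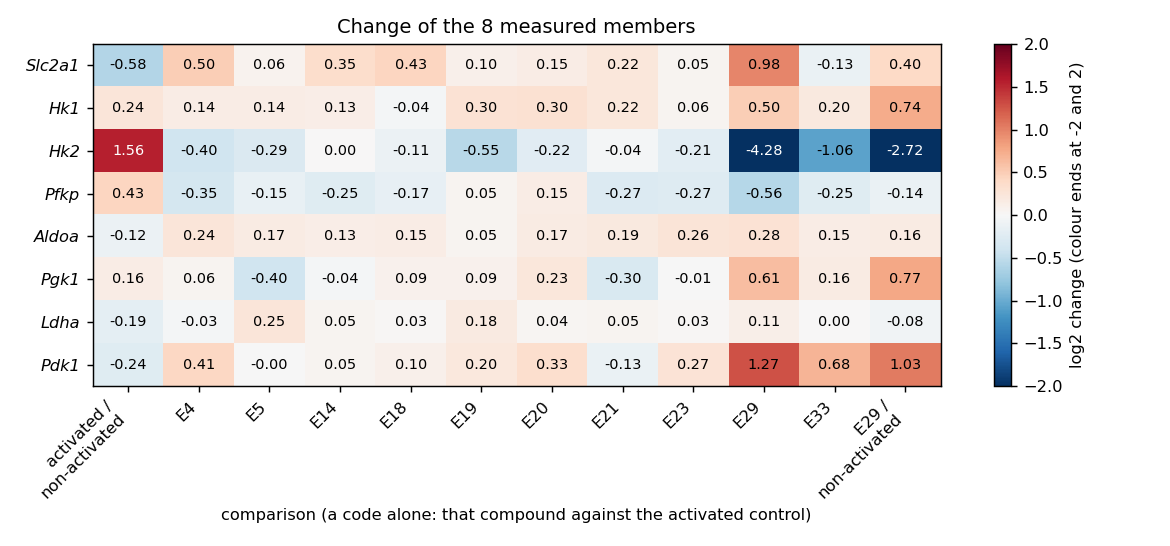
Log2 change (colour, with the value printed) of the 8 measured members (rows) in each comparison (columns), with 1 array on each side. The row of Hk2 holds the called decreases, -4.28 with E29 and -1.06 with E33, and the increase of 1.56 on activation, and the rows of Aldoa and Ldha stay between -0.19 and 0.28.

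The other genes of glucose use were taken from 8 lists on glycolytic enzymes, transporters, pyruvate and lactate handling, the pentose phosphate pathway, glycogen, the tricarboxylic acid cycle, the hypoxia response and regulators. Of 11 other measured glycolytic enzymes, 0 were called higher and 0 lower on activation (median log2 change -0.15), and 0 with E29 (median 0.29, all measured genes 0.25). Of all measured genes 5.29% were called on activation and 24.7% with E29. Gapdh, Pkm, Tpi1 and Pgam1, enzymes of the lower pathway, stood at -0.17, -0.10, -0.15 and 0.38 on activation. Pfkfb4 and Pfkfb2, which like Pfkfb3 set fructose-2,6-bisphosphate, stood lower, at -0.81 and -0.60.

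Of 4 measured transporters other than Slc2a1, 1 was called on activation, where 5.29% of all genes were. Slc2a6, which encodes GLUT6, a transporter of intracellular membranes, was 5.13-fold higher in the activated control (8.49 log2 units) than without activation (6.13), and stood at 1.21 log2 units above it by the median of all 11 activated arrays. It was called lower with E29 (4.96-fold), E4 (4.42-fold), E14 (3.34-fold), E19 (2.78-fold), E33 (2.43-fold) and E18 (2.22-fold). The activated control was high among the activated arrays for this gene: against the median of the other 10, the log2 changes were -1.27 with E29 and -1.11 with E4, but -0.70 (E14), -0.44 (E19), -0.24 (E33) and -0.053 (E18), below the threshold. Slc2a3, the neuronal GLUT3 gene, stood at -0.36 on activation and 0.31 with E29.

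Among regulators of glucose use, Txnip and Arrdc4 encode related arrestins that restrain glucose uptake and are known to be induced by glucose itself. Arrdc4 was 4.17-fold higher on activation (8.04 to 10.10 log2 units) and 5.08-fold lower with E29 (7.75). Txnip was nearly level between the controls (10.05 and 10.23) and was 13.4-fold lower with E29 (6.48), with 11 other arrays between 9.45 and 10.57. Of 6 measured regulators with E29, 1 was higher and 2 were lower, where 24.7% of all genes were called. Vhl, which marks hypoxia-inducible factor for destruction, was the higher one at 2.74-fold, a call lost with scaling to reference genes (0.85) and without background correction (0.99). Myc stood at -0.15.

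Around pyruvate, Pdp2, the phosphatase that reactivates pyruvate dehydrogenase, was 2.17-fold higher on activation and 2.89-fold lower with E29. Its call on activation held in 7 of 10 alternative settings and was lost with scaling to reference genes (0.79), with the mean of its detected probes (0.91) and against the median of all 11 activated arrays (0.97). Pdk2, a second kinase of that complex, was 2.71-fold higher with E29, as Pdk1 was. With scaling to reference genes Pdk2 was at 0.72 and with no background correction at 0.79, so this call depends on the processing, as that of Pdk1 does. In all, 1 of 10 measured genes of pyruvate and lactate handling was higher and 1 was lower with E29, a share below the 24.7% of all genes.

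In glycogen metabolism, Ppp1r3c, which targets protein phosphatase 1 to glycogen and favours its synthesis, was at 12.27 log2 units without activation, 11.12 with it and 8.12 with E29. It was 2.21-fold lower on activation (log2 change -0.93 with scaling to a common median), 2.50-fold lower with E4 and 8.02-fold lower with E29, each of the latter 2 against the activated control. The list had 6 measured genes on activation and with E29 and 5 with E4, and none but Ppp1r3c was called in these comparisons. Of all genes 5.29% were called on activation, 24.7% with E29 and 3.38% with E4. In the pentose phosphate pathway 1 of 5 genes was called, Rpia, an isomerase of ribose-5-phosphate, at 2.52-fold lower with E29, where 24.7% of all genes were called, and it stood at -0.88 without background correction.

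The hypoxia list went both ways. Hif1a, the oxygen-regulated subunit of hypoxia-inducible factor, was 2.91-fold higher on activation and 2.96-fold lower with E29, and Ddit4, an inhibitor of mTOR signalling, was 3.12-fold lower on activation. With E29, 4 of 15 measured members were higher and 3 lower, with a median of 0.56, where 24.7% of all genes were called, 10.2% higher and 14.5% lower. Kdm3a, a histone demethylase, was 2.74-fold lower, Ddit4 was not detected and, set to the array floor, had a log2 change of -1.73 (-0.94 without background correction). Mxi1, a Myc antagonist, was 2.72-fold higher, but stood at 0.76 with scaling to reference genes and at 0.87 without background correction. On activation 1 of 15 was higher and 1 lower, with a median of -0.16, where 5.29% of all genes were called. Of 14 measured genes of the tricarboxylic acid cycle, 0 were called on activation, where 5.29% of all genes were, and 2 were higher with E29, where 10.2% of all genes were. These were Sdhd (2.31-fold) and Mdh1 (2.21-fold), which were at 0.61 and 0.67 log2 units with scaling to reference genes.

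**Figure D4:**
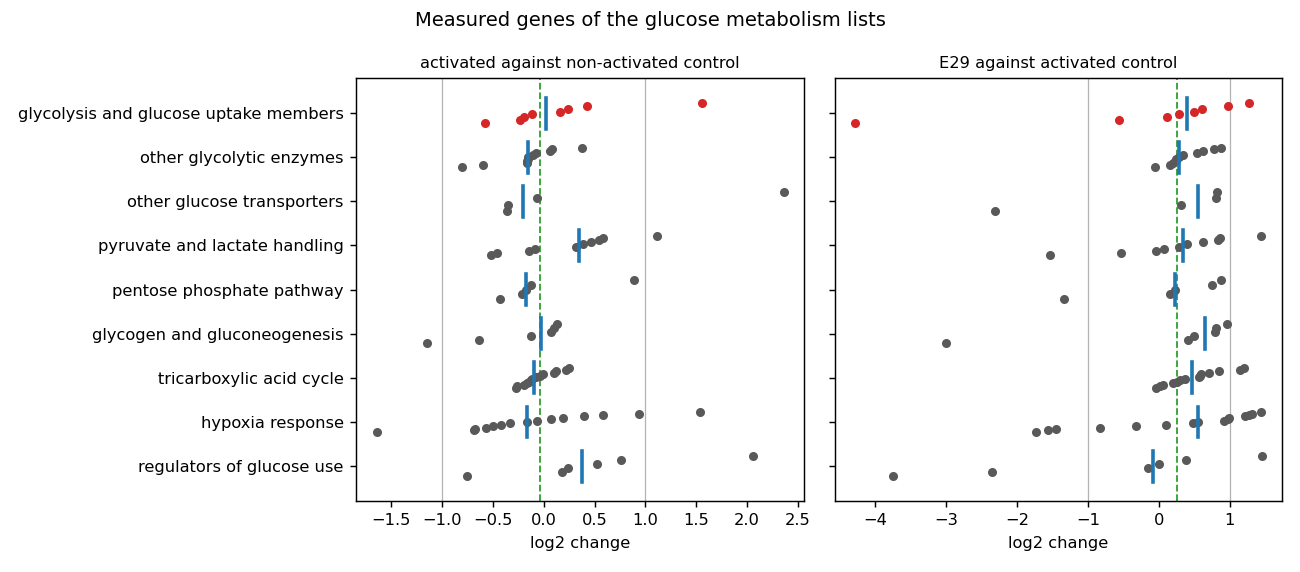
Log2 change (x axis) of each measured gene (points; red, the members; grey, other genes) by list (y axis), for activation (left) and for E29 against the activated control (right), with the list median (blue bar), the median of all measured genes (green dashed line) and the 2-fold limits (grey lines). Most enzymes lie inside the limits, and single genes stand apart, such as Hk2 at -4.28, Txnip at -3.75 and Ppp1r3c at -3.00 with E29.

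For the 3 most variable members, genes with a like pattern were sought among 5914 genes detected on all 12 arrays. Over the 12 arrays the level of Hk2 was most like that of Ddx52, an RNA helicase gene (Pearson r = 0.99), then Gch1, which encodes the first enzyme of tetrahydrobiopterin synthesis, Bcl10, Ndufaf4 and Mrps2 (r = 0.99 each). The E29 array weighs heavily in these values. Over the 11 arrays without E29 the nearest were Rrp12 (0.96), Sat1 (0.96), Pdlim1 (0.95), Noc4l (0.95) and Arrdc4 (0.95), and the 5 genes named first had 0.91 to 0.95. Pdlim1 had only r = 0.24 over all 12 arrays. Without E29 the non-activated control was the lowest array for Hk2, at 10.20, and its weight in these values was not tested. For Pdk1 the nearest was Smim8 (0.98, and 0.94 without E29), followed by Spr, Cfap410, H2bc15 and Hibadh, and the same 5 genes were nearest without E29. For Slc2a1 it was Slc38a10 (0.96, and 0.93 without E29), followed by Coro2b, Slc19a1, Fbxw8 and Araf, of which Coro2b and Slc19a1 stayed among the 5 nearest without E29. Between members, Hk2 and Slc2a1 had r = -0.71 over 12 arrays and -0.18 over 11, and Hk2 and Pdk1 -0.88 and -0.57. All these points share the quantile normalisation, and 11 of the 12 share the stimuli.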

How the data were processed

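RNA of 12 samples (400 ng input, amplified for 12 h, labelled with biotin) was read on 1-colour Illumina arrays. The deposited values are bead intensity for each probe with no normalisation, per the file header. Beside each intensity stands a deposited detection p-value. Per the submitters' processing notes GenomeStudio 2010.3 was used. A background step of the authors is not stated in the sources used here. The other table from the authors has processed intensity on a linear scale, with a floor of 10 (array medians 14.9 to 15.0) and its method of normalisation not given; it served as an alternative.

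Intensities were background-corrected, quantile-normalised and log2-transformed with neqc of limma 3.58.1 (R 4.3.3; offset 16), with the background of each array inferred from the detection p-values. Of 25697 probes 23978 had 1 symbol, 0 had several and 1719 stay unnamed; 23962 matched RefSeq gene IDs and 0 symbols changed. The brightest probe stood for a gene. A gene was measured if its detection p was under 0.01 on 1 of the arrays compared; undetected values were set no lower than the lowest detected value on their array. Called means at least 2-fold. With 1 array per group no test was made, and the number of arrays limits the precision. The call rule was tested on simulated data, in which only a small set of bright probes was changed. That simulation does not cover dim probes or a change in as many genes as with E29.

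The members, gene lists and rules were chosen with earlier results of these data known. Named were all members and, per list, up to 4 genes with the largest 2-fold change in activation, E4, E29 or E33, plus the 5 genes most like each of 3 members. Other list genes given as examples below 2-fold (Gapdh, Pkm, Tpi1, Pgam1, Pfkfb4, Pfkfb2, Slc2a3, Myc) and Eno1b were chosen after their values were seen. Python 3.11.15, pandas 2.3.3, numpy 2.4.6 and matplotlib 3.10.9 were used.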

Additional observations from a re-analysis of the deposited data

How the results depend on the processing

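The settings tried were scaling to a common median or to reference genes, no background correction, an offset of 50, the authors' processed values, no detection filter or floor, a detection p under 0.05, the mean of detected probes, counting from the median of all genes, another reference array and 1.5-fold. The decrease of Hk2 with E29 and its increase on activation kept 2-fold in all of them. The reference genes were not level themselves, and their own changes enter every value of that setting. Of 9 measured, 8 detected on all arrays were used. On activation 7 of the 9 lay above 0 and 2 below (median 0.19, all genes -0.034), with B2m at 0.80 and Tfrc at 0.76. With E29 their median was 0.29 (all genes 0.25), and against the non-activated control 0.57 (all genes 0.19).

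At 1.5-fold, 4 members passed with E29, 4 with E29 against the non-activated control and 2 with E33. The shares of all genes were 51%, 46% and 7.18%. At 2-fold, 0 passed with E33 against the other 10 activated arrays, where 0.535% of all genes did. Also at 2-fold, 1 member passed with E29 with reference gene scaling and 1 without background correction. Of 7472 genes 51 were higher and 1871 lower with that scaling, and 106 and 704 without background correction. Slc2a1 passed 2-fold with E29 in its highest setting, at a log2 change of 1.32. Against the non-activated control 1 member passed 2-fold with either scaling, without background correction, with the larger offset and counted from the median of all genes. In these settings 628 (no background correction) to 2486 (reference gene scaling) of 7619 genes were lower. With reference gene scaling the members' median was -0.24 on activation, -0.14 with E4, -0.18 with E18, -0.044 with E29 and -0.30 with E29 against the non-activated control. It was 0.14 with E29 counted from the median of all genes and 0.61 against the non-activated control with scaling to a common median. Mxi1 turned to -0.031 with E29 against the non-activated control with reference gene scaling. The cause of these shifts was not tested.

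Over all genes, the calls that were higher made up 60.0% on activation (23.2% with reference gene scaling, 72.5% without background correction) and 41.3% with E29 (2.65% and 13.1%, 27.8% with the larger offset, 16.9% counted from the median of all genes). The median of all genes with E29 moved from 0.25 to -0.22 with reference gene scaling. No paired analysis was possible because each group holds 1 array, and no replicate could be left out of a comparison for the same reason. Dim probes (Hk1, Pdk1, Pgk1, Pfkfb3) limit what can be seen of their genes.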
